A study of Anas platyrhynchos with 11 samples.

Results

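Caveolae are flask-shaped pits of the plasma membrane, and the genes described here encode their coat: the caveolins CAV1, CAV2 and CAV3, the cavins CAVIN1, CAVIN2 and CAVIN4, and the membrane-shaping protein PACSIN2. The set was chosen by gene name, with the difference between corpuscle and skin already known, so that difference is described below with no p-value for any member. Of the 8 genes on the list, 7 had a row among the 16823 genes of the deposited table; EHD2, the ATPase of the caveola neck, was not analysed here. The study profiled RNA of the duck bill (Anas platyrhynchos) in 5 libraries of Meissner corpuscles and 6 libraries of bill skin. Meissner corpuscles are end organs of touch built from a sensory axon and lamellar cells of Schwann type, and per the labels each library pooled 2 to 10 of them, drawn into a pipette. Bill skin was collected nearby from places that held no corpuscle. The labels name neither strain, genotype, age nor treatment, and speak of 3 skin isolations but do not say which library came from which. The p-values below therefore reflect the spread among these libraries alone, which may be technical. All corpuscle libraries were made with the NEBNext Single Cell/Low Input kit and all skin libraries with the Kapa mRNA Hyper Prep kit, and the effects of tissue and of kit cannot be told apart.

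Caveolins are hairpin proteins that insert into the inner leaflet and oligomerise. In mammals CAV1 is needed for caveolae outside striated muscle, CAV2 joins it in mixed oligomers, and CAV3 takes the place of CAV1 in muscle. Cavins are cytosolic proteins that bind the caveolin scaffold: CAVIN1 is required for caveolae in mammalian cells, CAVIN2 helps to bend and extend the membrane, and CAVIN4 is the form of striated muscle. Caveolae flatten when the membrane is stretched, and lamellar cells of touch corpuscles are known for carrying many of them.

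Library totals ran from 5766279 to 11886808 counts in corpuscles and from 13263776 to 20925841 counts in skin, so skin values carry less counting error. Corpuscle 4 was the shallowest library, and it was the lowest of all 11 for CAV1, CAVIN1 and PACSIN2. Levels are CPM, counts relative to library sizes that were scaled by trimmed mean of M-values. Fold changes are log2, corpuscle minus skin, with the standard error (SE) of edgeR's quasi-likelihood fit. Among all 14638 genes tested, 56.4% passed a Benjamini-Hochberg adjusted p of 0.05, 33% higher and 23.5% lower in corpuscles, with a median log2 fold change of 0.18. Cell type markers were mixed: 8 of 9 Merkel cell genes and 5 of 9 axon genes were called higher in corpuscles (0 and 1 lower). Of 8 Schwann and glial genes tested 0 were higher and 4 lower. S100B, 1 of the 9 in the table, had no read in any library of either tissue and gives no contrast. SOX10, a Schwann cell transcription factor, had 241 ± 129 CPM in corpuscles (SD, n = 5) and 153 ± 20.6 CPM in skin (n = 6), and did not pass (log2 fold change 0.66 ± 0.32, edgeR adjusted p = 0.0873). Leaving out corpuscle 3 or corpuscle 4 brought SOX10 past the threshold (edgeR adjusted p = 0.0232 and 0.0153), as did 4 other alternatives.

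The caveolins stood far apart from each other. CAV2 had 982, 1218, 1584, 1114 and 1345 CPM in corpuscles 1 to 5, against a range of 110.3 to 139 CPM with a median of 129 CPM in skin. Every corpuscle library lay above every skin library, and the lowest corpuscle was several times the highest skin value. The corpuscle mean was 1249 ± 230.1 CPM and the skin mean 127 ± 11.4 CPM (SD), a ratio of 9.85 and a log2 fold change of 3.30 ± 0.18 (SE). Leaving out any single library kept that log2 fold change between 3.19 and 3.35.

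CAV1, the principal caveolin outside muscle, had 807, 672, 1024, 461 and 907 CPM in corpuscles 1 to 5, against a range of 606 to 854 CPM with a median of 654 CPM in skin. The tissues overlapped: corpuscles 3 and 5 were above every skin library, corpuscle 4 was below every one, and the other 2 corpuscles lay within the skin range. Means were 774 ± 218 CPM in corpuscles and 682 ± 96.0 CPM in skin, with a log2 fold change of 0.18 ± 0.20 (0.32 without corpuscle 4 and 0.06 without corpuscle 3). In this bulk RNA, fewer cells of a type and less RNA per cell cannot be told apart.

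**Figure D1:**
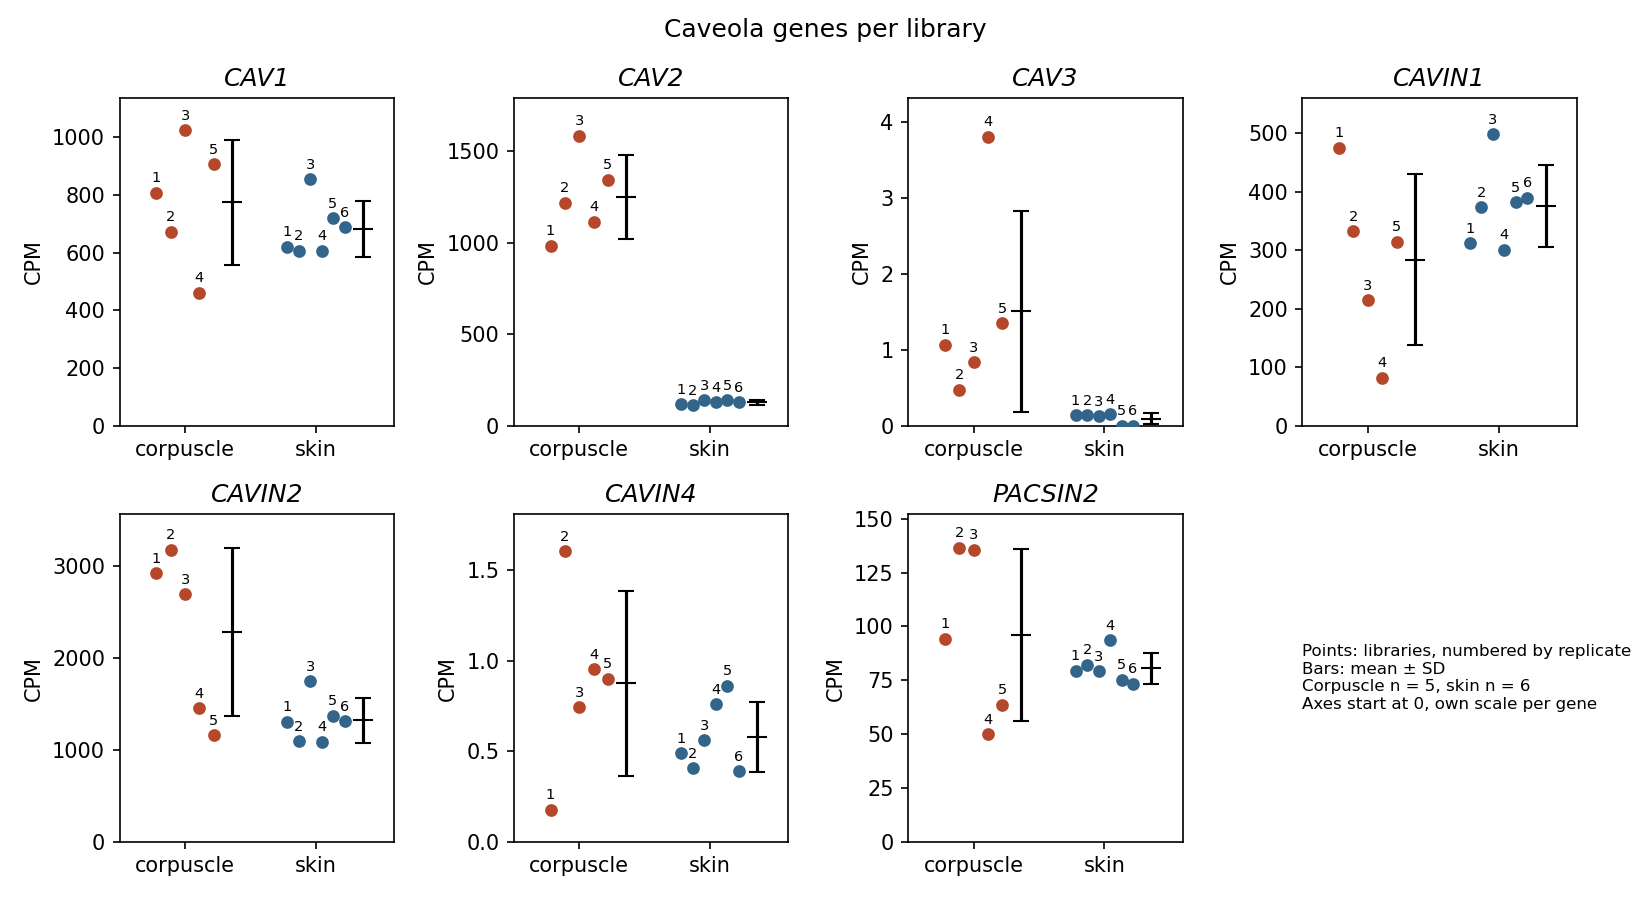
CPM of the 7 caveola genes in each library (corpuscle in red, skin in blue, numbered by replicate), with mean ± SD as black bars; each panel has its own linear axis from 0. CAV2 is the abundant gene whose tissues do not overlap (at least 982 CPM in corpuscles, at most 139 CPM in skin), while the corpuscle points of CAV1, CAVIN1, CAVIN2 and PACSIN2 spread across or around the skin points.

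Per unit of transcript length the makeup of the caveolins differed between tissues. On the FPKM scale (CPM per kilobase of the gene length implied by the deposited table), CAV2 made up 61.7 to 75.9% of summed caveolin FPKM in corpuscles and 17.8 to 22% in skin. CAV1 made up 31.5 ± 5.42% in corpuscles and 80.1 ± 1.37% in skin (SD). The CAV2 to CAV1 ratio was 1.62, 2.41, 2.05, 3.21 and 1.97 in corpuscles 1 to 5, against 0.216 to 0.282 in skin. CAV2 was thus above CAV1 in 5 of 5 corpuscles and in 0 of 6 skin libraries. Summed over the family, caveolin FPKM was 939 ± 184 in corpuscles and 328 ± 41.7 in skin.

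**Figure D2:**
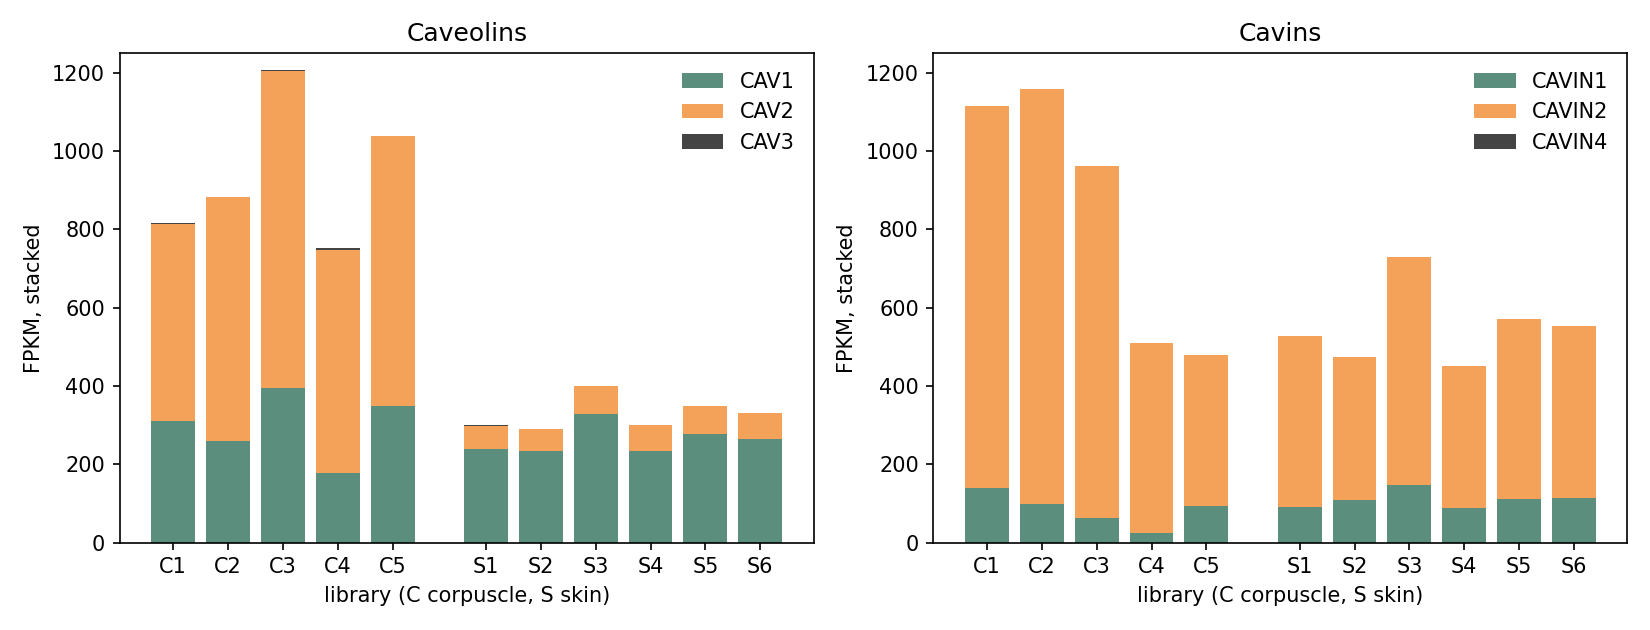
Stacked FPKM of the caveolins (left) and of the cavins CAVIN1, CAVIN2 and CAVIN4 (right) in each library, C for corpuscle and S for skin. CAVIN3 was not analysed. CAV2 fills 61.7 to 75.9% of each corpuscle caveolin bar and 17.8 to 22% of each skin bar, and CAVIN2 fills at least 76.8% of every cavin bar; CAV3 and CAVIN4 are too low to be seen clearly.

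Among the cavins analysed, CAVIN2 was the most abundant and CAVIN1 the more variable of the 2 well expressed members. CAVIN2 had 2926, 3180, 2697, 1454 and 1159 CPM in corpuscles 1 to 5, against a range of 1089.9 to 1750.4 CPM with a median of 1311 CPM in skin. Corpuscles 1 to 3 were above every skin library, and corpuscles 4 and 5 lay within the skin range. The corpuscle mean was 2283 ± 914 CPM and the skin mean 1322 ± 242 CPM, which is 0.79 ± 0.25 as log2 fold change (1.15 without corpuscles 4 and 5).

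CAVIN1 had 476, 333, 214, 82.3 and 315 CPM in corpuscles 1 to 5, against a range of 301 to 498 CPM with a median of 378 CPM in skin. Corpuscles 3 and 4 were below every skin library, and the other 3 lay within the skin range. Means were 284 ± 146 CPM in corpuscles and 376 ± 70.5 CPM in skin, with a log2 fold change of -0.41 ± 0.32. Without corpuscle 4 that value was -0.17, and without corpuscle 1 it was -0.69. The highest corpuscle had 5.78 times the CPM of the lowest for CAVIN1, against 1.61 times for CAV2, and in skin these figures were 1.66 and 1.26.

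The balance of cavin to caveolin followed from these levels. The FPKM ratio of CAVIN1 to CAV1 was 0.449, 0.378, 0.160, 0.136 and 0.264 in corpuscles 1 to 5, against 0.379 to 0.470 in skin. Corpuscle 1 lay within the skin range, corpuscle 2 just under it, and corpuscles 3 to 5 clearly under it. CAVIN2 over CAVIN1 averaged 11.3 ± 6.22 in corpuscles and 4.01 ± 0.465 in skin (SD), with corpuscle 5 (4.18) inside the skin range. Summed CAVIN1, CAVIN2 and CAVIN4 over summed caveolins came to 0.923 ± 0.4 in corpuscles and 1.67 ± 0.111 in skin. These ratios did not overlap (0.461 to 1.37 in corpuscles and 1.51 to 1.82 in skin). The sum is partial, since CAVIN3 was not analysed here.

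**Figure D3:**
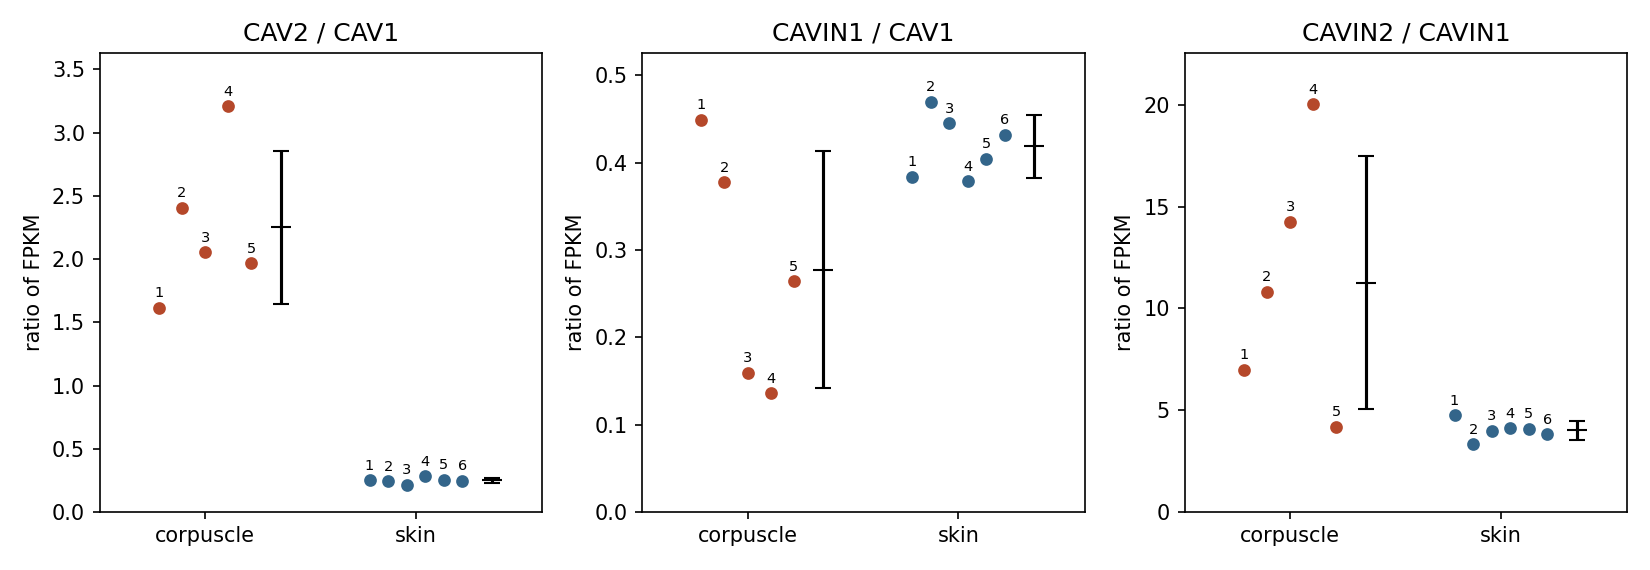
FPKM ratios within each library (numbered by replicate; corpuscle in red, skin in blue; bars are mean ± SD). The CAV2 to CAV1 ratio does not overlap between tissues (1.62 to 3.21 in corpuscles, 0.216 to 0.282 in skin), while CAVIN1 to CAV1 and CAVIN2 to CAVIN1 each have a corpuscle within the skin range.

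PACSIN2, an F-BAR protein that shapes the caveola neck, had 94.3, 136, 136, 50.1 and 63.7 CPM in corpuscles 1 to 5, against a range of 73.5 to 93.6 CPM with a median of 79.3 CPM in skin. No corpuscle lay within the narrow skin range: 3 were above it, corpuscle 1 only just, and corpuscles 4 and 5 were below it. Means were 96.0 ± 39.9 CPM in corpuscles and 80.5 ± 7.12 CPM in skin, with a log2 fold change of 0.25 ± 0.27 (0.60 without corpuscles 4 and 5). Corpuscles 4 and 5 were also the lowest corpuscles for CAVIN2, though not for CAV2.

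The striated muscle forms were scarce. CAV3 had 12, 5, 9, 24 and 15 reads in corpuscles 1 to 5, and 2, 3, 2, 2, 0 and 0 reads in skin 1 to 6, 65 reads in all corpuscles and 9 in all skin. In CPM that was 0.471 to 3.81 in corpuscles and 0 to 0.152 in skin, without overlap. It did not pass the filter on low counts, and skin was at or under the floor of 3 reads per library, so no fold change is given. CAV3 averaged 1.44 FPKM in corpuscles and 0.088 FPKM in skin. For comparison, the median of 37 genes specific to organs other than skin (liver, pituitary, retina, gonad) was 1.44 FPKM in corpuscles and 0.104 FPKM in skin. The part of such low-level signal in the CAV3 difference was not tested.

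CAVIN4 had 2 to 17 reads in each corpuscle library and 6 to 13 in each skin library. Its means were 0.875 ± 0.509 CPM in corpuscles and 0.577 ± 0.193 CPM in skin, with overlap and a log2 fold change of 0.59 ± 0.50 (0.24 without corpuscle 2, which held the 17 reads). Skeletal muscle markers moved with CAV3 in direction, and 10 of 12 were in the table. Of 6 tested, 5 were called higher in corpuscles and 0 lower, beside 33% and 23.5% of all genes tested. TNNT3 and PAX7, at 0.059 and 0.036 CPM in skin, entered the fit only through corpuscle reads and could not be called lower. Nothing is therefore read from that count. The summed level of these markers ran from 75.7 to 383 CPM in corpuscles and from 8.34 to 13.6 CPM in skin. Their median log2 fold change was 3.72, beside 3.382 for the 28 genes tested of the other organs named above. Both medians cover only genes that passed the count filter, which genes near 0 in skin can pass only through corpuscle reads. MYOD1, the muscle lineage factor, averaged 5.35 ± 4.39 CPM in corpuscles and had 1 read in all skin libraries together. Its corpuscle mean of 5.98 FPKM lay under the 95th percentile of those other-organ genes in corpuscles, 6.92 FPKM. None of the muscle markers in the table was at 0 in every corpuscle, and their part in the CAV3 values was not tested.

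Ordered by mean FPKM, corpuscles had CAVIN2 (761 ± 305), CAV2 (639 ± 118), CAV1 (298 ± 84.0), CAVIN1 (83.5 ± 43.0), PACSIN2 (26.6 ± 11.04), CAV3 (1.44 ± 1.27) and CAVIN4 (0.324 ± 0.189). The first 2 did not differ beyond their spread, since CAVIN2 exceeded CAV2 in 3 of 5 corpuscles. CAV3 exceeded CAVIN4 in 4 of 5. The other neighbours in this order kept it in 5 of 5 corpuscles. In skin the order was CAVIN2 (441 ± 80.6), CAV1 (263 ± 37.0), CAVIN1 (111 ± 20.7), CAV2 (64.9 ± 5.85), PACSIN2 (22.3 ± 1.97), CAVIN4 (0.214 ± 0.071) and CAV3 (0.088 ± 0.069), each step holding in 6 of 6 libraries. CAV2 was thus the gene that changed place among the abundant members. By mean FPKM it ranked 85th of the genes tested in corpuscles and 731st in skin, while CAV1 ranked 246th and 159th, and CAVIN2 57th and 98th.

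Counted over the set, 6 of the 7 members entered the fit, and 2 of these, CAV2 and CAVIN2, passed edgeR's threshold, both higher in corpuscles, beside the 56.4% of all genes that passed. Only CAV2 passed without corpuscle 1, without skin 5 and 6, or with the replicate number as a block, and CAV2 and CAV3 passed without corpuscle 2. The tissues did not overlap in CPM for 1 of these 6, CAV2, beside 41.3% of all genes tested (22.3% higher and 19% lower in corpuscles), nor for CAV3, which was not tested. As the contrast was known when the members were chosen, nothing is read from these counts. In the authors' deposited table, which gives skin over corpuscle, the log2 fold changes were -3.22 for CAV2, -0.11 for CAV1, 0.47 for CAVIN1 and -0.72 for CAVIN2. CAVIN4 had -0.51 and PACSIN2 -0.18 there, and CAV3 is left out for its low reads. These are the same directions as here, but they rest on the same counts and give no separate support.

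CAV1 and CAV2 are neighbours in the genome. In the RefSeq gene table of the Pekin duck (assembly IASCAAS_PekinDuck_T2T, used for gene names, order and overlaps) they follow each other between MET and TES. The 3 protein-coding genes on each side were looked at after the CAV2 value was seen. TES (testin), a LIM protein of focal adhesions next to CAV2, rose to 241 ± 71.8 CPM in corpuscles, against 39.4 ± 3.59 CPM in skin (log2 fold change 2.61 ± 0.23, edgeR adjusted p = 4.78e-07). TFEC, a transcription factor gene on the far side of TES, rose by 3.46 ± 0.74 at low levels (12.7 ± 13.2 CPM in corpuscles against 1.16 ± 0.825 CPM in skin; adjusted p = 0.000994; 2.72 without corpuscle 3), and MDFIC beyond it did not pass (0.12 ± 0.39). MDFIC had -0.17 without corpuscle 1, and was called higher without corpuscles 4 and 5 (0.49, edgeR adjusted p = 0.0326). TFEC averaged 3.75 FPKM in corpuscles, under the 95th percentile of the other-organ genes described above, 6.92 FPKM. The part of such low-level signal in the TFEC rise was not tested.

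On the side of CAV1, MET, a growth factor receptor, did not pass (-0.67 ± 0.42, edgeR adjusted p = 0.188), though it was called lower without corpuscle 4 (-1.082, adjusted p = 0.0237) and without corpuscles 4 and 5. CAPZA2, of the actin capping protein, rose to 685 ± 151 CPM in corpuscles, against 206 ± 35.3 CPM in skin (1.74 ± 0.19, adjusted p = 4.02e-06). ST7 rose by 1.68 ± 0.56 (adjusted p = 0.0192), a call lost without corpuscle 2 (adjusted p = 0.0534) or corpuscle 3 (0.0749), without skin 5 and 6 (0.0835), with limma-voom (0.215) and with the replicate block (0.216). In that RefSeq table the span of MET overlaps that of CAV1, the span of CAV3 touches OXTR, and CAVIN2 overlaps NABP1 and an uncharacterised locus. Whether counting used strand is not given in the sources used here, so reads shared by such overlapping genes cannot be told apart.

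**Figure D4:**
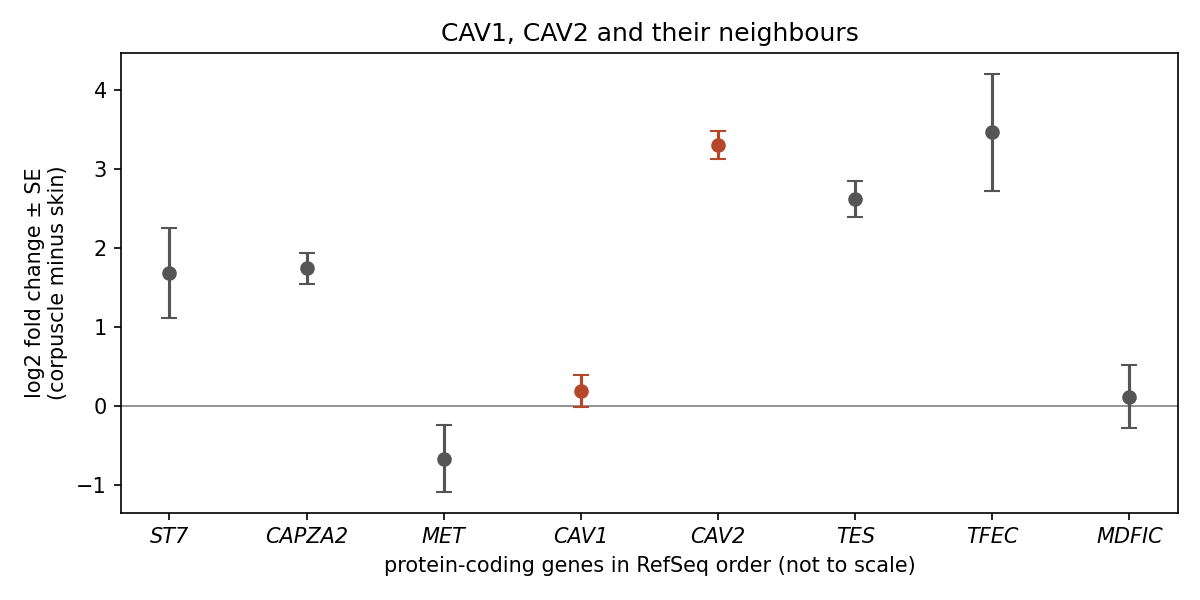
log2 fold change ± SE (corpuscle minus skin) of CAV1 and CAV2 (red) and of the 3 protein-coding genes on each side (grey), in RefSeq order and not to scale. CAV2 (3.30), TES (2.61) and TFEC (3.46) are high side by side. On the side of CAV1, CAPZA2 (1.74) and ST7 (1.68) are also above 0, while CAV1 (0.18), MDFIC (0.12) and MET (-0.67) lie near 0 or below it.

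Among partners of the caveola coat, 8 of the 13 listed could be tested, and most of these were lower in corpuscles. Of 8 tested partners 1 was higher and 5 lower, beside 33% and 23.5% of all genes tested, and the median log2 fold change was -1.31, against 0.18 for all genes tested. EHD3, a relative of EHD2 that acts in endosomal recycling, fell to 72.8 ± 22.1 CPM in corpuscles, against 265 ± 32.0 CPM in skin (-1.86 ± 0.23, edgeR adjusted p = 9.99e-06). EHD4, another relative, which can bind caveolae in mammalian cells, fell by 1.43 on the log2 scale (adjusted p = 0.014), to 38.4 ± 30.1 CPM in corpuscles, against 103 ± 11.7 CPM in skin. Corpuscle 4, at 85.6 CPM, overlapped skin, and without it the log2 fold change was -1.95.

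The other PACSIN genes had lower levels than PACSIN2 in FPKM and other fold changes. PACSIN1, the neuronal form, had 49.98, 111, 14.8, 8.72 and 34.9 CPM in corpuscles 1 to 5, and 7.36 ± 1.54 CPM in skin. It rose by 2.57 ± 0.53 (edgeR adjusted p = 0.000699; 1.88 without corpuscle 2), with corpuscle 4 inside the skin range. PACSIN3, the muscle-enriched form, averaged 19.6 ± 17.9 CPM in corpuscles and 46.0 ± 6.53 CPM in skin and did not pass (-1.23 ± 0.55, adjusted p = 0.0676). Leaving out corpuscle 3 or corpuscle 5 made PACSIN3 a call (-1.48 and -1.78, edgeR adjusted p = 0.0488 and 0.0127), as did 5 of the other alternatives. SRC, a kinase that phosphorylates CAV1, fell to 9.35 ± 4.38 CPM in corpuscles, against 27.4 ± 4.45 CPM in skin (-1.56 ± 0.36, adjusted p = 0.00175). The kinase ABL1 and the receptor ROR1, a scaffold for cavin and caveolin, fell as well (-1.23 ± 0.30 and -1.39 ± 0.37, adjusted p = 0.00301 and 0.00462; both named after their values were seen). CAVIN3, EHD1, DNM2, FLNA and NOSTRIN, also on the list, were not analysed here.

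Flotillins, which form membrane domains apart from caveolae, went opposite ways. FLOT1 fell to 7.81 ± 2.79 CPM in corpuscles, against 27.96 ± 2.15 CPM in skin (-1.84 ± 0.32, edgeR adjusted p = 0.000195). FLOT2 was called higher, with a corpuscle mean of 70.6 ± 32.2 CPM and a skin mean of 41.7 ± 5.05 CPM (0.76 ± 0.30, adjusted p = 0.0416), and that call was lost without any of the 6 skin libraries singly, without corpuscle 1 (adjusted p = 0.111) or corpuscle 4 (0.0997), and with 6 of the other alternatives (0.0619 to 0.201). Without a skin library the adjusted p ran from 0.0539 to 0.082. MAL2, a membrane proteolipid, fell (-2.28 ± 0.64, edgeR adjusted p = 0.0066, and -3.65 without corpuscle 3). With it the 5 genes tested gave 1 higher and 2 lower, beside 33% and 23.5% of all genes tested. The median of the 5 was -0.03. Over the 23 alternatives the count of higher genes ran from 0 to 2. It stayed above 0 in 12 of them, was 2 without corpuscle 2 and with DESeq2, and was 0 in the rest.

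The clathrin coat, the other main coat of endocytosis, had no common direction. Of 24 genes tested 5 were higher and 6 lower, beside 33% and 23.5% of all genes tested. The median log2 fold change of the 24 was 0.11. The count of higher genes was 8 without corpuscle 4, with or without corpuscle 5, and 2 without skin 5 and 6 or with the replicate block. CLTC, the clathrin heavy chain, fell to 165 ± 40.3 CPM in corpuscles, against 314 ± 21.7 CPM in skin (-0.93 ± 0.19, edgeR adjusted p = 0.000812). The adaptors PICALM and HIP1 fell as well (-1.32 ± 0.32 and -1.37 ± 0.37, edgeR adjusted p = 0.00273 and 0.00498). SNAP91, the neuronal relative of PICALM, rose by 2.81 ± 0.44 (edgeR adjusted p = 6.37e-05), to 11.9 ± 6.41 CPM in corpuscles, against 1.68 ± 0.652 CPM in skin. Its corpuscle mean of 2.46 FPKM was under the 95th percentile of the other-organ genes described above, 6.92 FPKM. The part of such low-level signal in the SNAP91 rise was not tested. The more abundant AP2M1, picked after its value was seen, rose to 561 ± 124 CPM in corpuscles, against 304 ± 25.0 CPM in skin. Its log2 fold change was 0.88 ± 0.18 (edgeR adjusted p = 0.000639), and it was not followed through the alternatives.

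Of 20 genes of BAR domain proteins and dynamins, which bend and cut membranes, 4 were higher and 9 lower, beside 33% and 23.5% of all genes tested. The median of the 20 was -0.52, and 5 were lower without skin 2, 3 or 6, with thinning, and with a minimum of 5 CPM. BIN1, which shapes muscle transverse tubules together with CAV3 in mammals, had 688, 444, 465.5, 376 and 580.0 CPM in corpuscles 1 to 5, against 68.3 ± 5.91 CPM in skin. No library overlapped, and the log2 fold change was 2.90 ± 0.19 (edgeR adjusted p = 5.5e-08). The other members named by rule fell. SH3GL1, an endophilin, fell by 3.12 on the log2 scale (adjusted p = 0.000308; -4.12 without corpuscle 5), and SNX9, a sorting nexin of clathrin pits, fell by 2.75 (adjusted p = 5.17e-06). AMPH, the close relative of BIN1 and picked after its value was known, averaged 6.45 ± 1.72 CPM in corpuscles, against 0.127 ± 0.083 CPM in skin (5.58 ± 0.55, adjusted p = 1.25e-06). That skin mean lay under the CPM of 3 reads in every skin library (0.135 CPM at least), so the size of the rise is uncertain. Its corpuscle mean of 2.04 FPKM was under the 95th percentile of the other-organ genes, 6.92 FPKM. The part of such low-level signal in the AMPH rise was not tested.

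Of 25 receptors, channels and signalling proteins known to gather in caveolae, 3 were higher and 14 lower, beside 33% and 23.5% of all genes tested. The median log2 fold change of this list was -0.90. KDR, PDGFRA and PDGFRB of this list, and PLVAP of the partners, are also on the cell type marker lists below. The counts of these lists are therefore not independent. AQP1, a water channel of vessels, fell to 65.2 ± 74.3 CPM in corpuscles, against 748 ± 133 CPM in skin (-3.52 ± 0.68, edgeR adjusted p = 0.000553; -4.48 without corpuscle 4). KDR, the endothelial VEGF receptor, fell by 2.73 on the log2 scale (adjusted p = 1.02e-05). SLC8A1, the sodium-calcium exchanger, rose to 81.0 ± 37.8 CPM in corpuscles, against 10.5 ± 3.70 CPM in skin (2.94 ± 0.38, adjusted p = 1.2e-05). Its corpuscle mean of 7.37 ± 3.43 FPKM lay near the 95th percentile of the other-organ genes, 6.92 FPKM. The part of such low-level signal in the SLC8A1 rise was not tested. The others that were higher, named after their values were seen, were the calcium pump ATP2B4 (0.77, edgeR adjusted p = 0.0401) and the channel TRPC4 (3.57, with a corpuscle mean of 4.15 ± 1.97 CPM and a skin mean of 0.338 ± 0.102 CPM). The corpuscle mean of TRPC4, 0.741 FPKM, was under the 95th percentile of the other-organ genes, 6.92 FPKM. The part of such low-level signal in the TRPC4 rise was not tested. The ATP2B4 call was lost without corpuscle 1, 2, 4 or 5 and without any of skin 2 to 6 (edgeR adjusted p from 0.0524 to 0.105), and under 6 of the other alternatives. NOS3, the endothelial nitric oxide synthase that CAV1 binds, averaged 1.73 ± 0.543 CPM in corpuscles and 2.12 ± 0.490 CPM in skin and did not pass (picked likewise; -0.29 ± 0.38, adjusted p = 0.547).

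**Figure D5:**
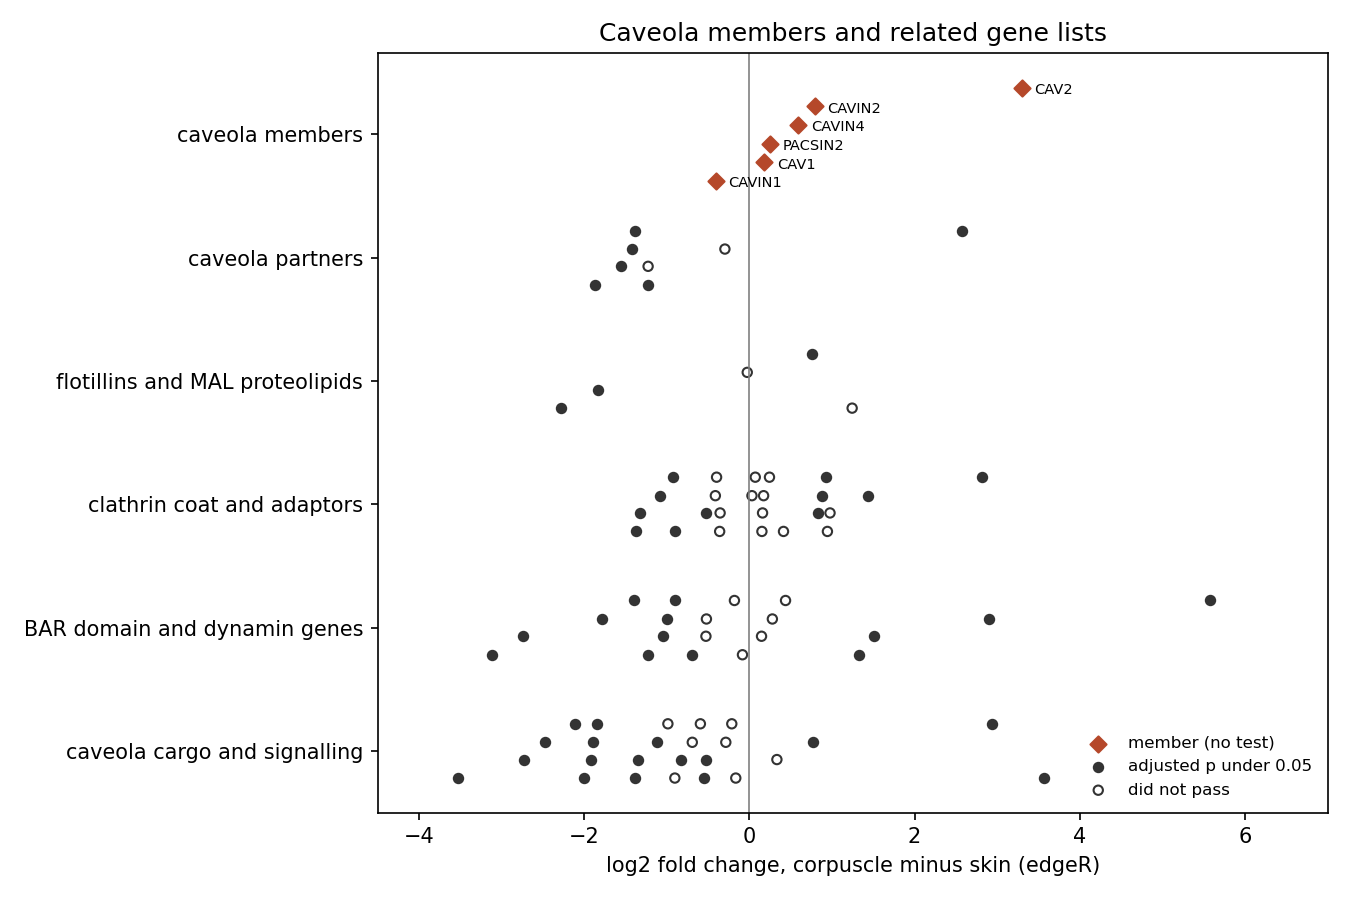
log2 fold change (corpuscle minus skin) of the 6 caveola members in the fit (red diamonds labelled no test, passing not marked) and of the genes of 5 related lists. For the lists, filled circles had an edgeR adjusted p under 0.05 and open circles did not pass. Height within a row only spreads the points. CAV2 lies at 3.30 with the other members between -0.41 and 0.79, and the partner and cargo lists hold more called genes to the left of 0 (5 and 14) than to the right (1 and 3).

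Vessel, smooth muscle and fat cells are rich in caveolae too, so their markers are set beside the members. Over all genes tested, 33% were called higher and 23.5% lower, for comparison with the marker counts that follow. Endothelial markers were lower in corpuscles: all 14 were in the table, 0 were called higher and 12 lower, and none was at 0 in every corpuscle. Their summed level ran from 104 to 258 CPM in corpuscles and from 1429 to 1965 CPM in skin. PECAM1 and CDH5, junction proteins of endothelium, averaged 13.0 ± 8.52 and 8.27 ± 6.00 CPM in corpuscles, against 283 ± 9.86 and 223 ± 21.5 CPM in skin (log2 fold changes -4.44 ± 0.46 and -4.75 ± 0.43, edgeR adjusted p = 2.12e-06 and 6.4e-07). PLVAP, which forms the diaphragm of endothelial caveolae, did not pass (51.7 ± 42.7 CPM in corpuscles, against 63.5 ± 14.5 CPM in skin; -0.30 ± 0.50, adjusted p = 0.637).

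Of 9 smooth muscle and pericyte markers tested 0 were higher and 6 lower, with sums of 158 to 350.4 CPM in corpuscles and 673 to 950.5 CPM in skin. ACTA2 and MYH11, of the contractile apparatus, fell (-4.99 ± 0.41 and -3.11 ± 0.49, edgeR adjusted p = 3.33e-07 and 7.93e-05). All 12 fibroblast markers were tested, with 0 higher and 8 lower and sums of 14663 to 47869.8 CPM in corpuscles and 53032 to 85954 CPM in skin, and 9 keratinocyte markers gave 1 higher and 5 lower, with sums of 169.8 to 239 CPM in corpuscles and 409 to 1580.2 CPM in skin. Merkel cell markers summed to 14639 to 79577 CPM in corpuscles and 1209 to 2481 CPM in skin, and axon markers to 259.5 to 1607 CPM in corpuscles and 111 to 143 CPM in skin, without overlap. The skeletal muscle sums given above did not overlap either, and 22.3% of all genes tested were higher in corpuscles without overlap. The largest corpuscle means were those of CHGB in the Merkel cell list (41726 CPM) and UCHL1 in the axon list (672 CPM). Schwann and glial markers summed to 995 to 1968 CPM in corpuscles and 1894 to 3233 CPM in skin. The part of each of these cell types in the member values was not tested.

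Adipocyte markers overlapped between tissues: 7 of 10 were in the table, 1 of 6 tested was higher and 0 lower, and sums ran from 153 to 812 CPM in corpuscles and from 275 to 348 CPM in skin. The called gene was LPL (0.87 ± 0.35, edgeR adjusted p = 0.0438). PPARG, CEBPA and CIDEA did not pass (-0.91 ± 0.49, -0.87 ± 0.50 and 0.27 ± 0.55, edgeR adjusted p = 0.123, 0.155 and 0.697). All of these were named after their values were seen and were not followed through the alternatives. ADIPOQ (adiponectin) had 175, 355, 258.8, 4.76 and 155 CPM in corpuscles 1 to 5, and 137 ± 30.1 CPM in skin, and did not pass (0.47 ± 0.57, edgeR adjusted p = 0.505). It was lowest in corpuscle 4, as were CAV1 and CAVIN1, and without corpuscle 4 it was called higher (0.79, adjusted p = 0.0133), likewise without corpuscles 4 and 5, while limma-voom gave -0.14. PLIN1, of lipid droplets, was low in both (3.23 ± 1.75 CPM in corpuscles, against 1.504 ± 1.39 CPM in skin; 1.082 ± 0.58, adjusted p = 0.122), and was called higher without skin 3 (1.74, adjusted p = 0.0112). Their part in the member values was not tested.

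Likeness to CAV1 and CAVIN1 was read as Pearson's r of log2(CPM + 1), centred within each tissue, over the 11 libraries and among 8490 other genes with at least 10 CPM in both tissues. Closest to CAV1 were PARP8 (r = 0.945), HAGH (0.935), ATP6V0A1 (0.934), VAMP7 (0.927) and STX8 (0.925). Closest to CAVIN1 were PKM (0.981), SF3A1 (0.977), FXYD6 (0.977), PDLIM4 (0.976) and TSPAN6 (0.976). Being picked as the highest of 8490 values over 11 libraries by itself favours a high r. Libraries can differ in depth and quality as well as in cells, and the part of each in these values was not tested. Corpuscle 4 was low in both members. Without corpuscle 4 the values of the same genes ran from 0.801 to 0.872 for CAV1, and from 0.903 to 0.974 for CAVIN1. Genes were not ranked again without it, so other genes may then be closer.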

How the data were processed

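The deposited table holds, per gene and library, the authors' read counts as raw whole numbers. Submitters' processing notes name R 4.2.1, edgeR 3.38.4, Subread 2.0.1, featureCounts, STAR 2.7.7a, Trimmomatic 0.39 and CASAVA 1.8.2; genome build, annotation and strand setting are not given in the sources used here. Per the file headers the authors also deposited normalized counts (a signal per gene), FPKM, and a log2 fold change of skin over corpuscle with its p-value.

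The counts were fitted here by the quasi-likelihood method of edgeR 4.0.16 (R 4.3.3), with a robust prior, TMM scaling and its default expression filter, which left 14638 genes, at a Benjamini-Hochberg threshold of 0.05. SE is the size of the log2 fold change divided by the root of F. FPKM is CPM per kilobase, with lengths from the deposited normalized counts over FPKM. Of 4214 locus identifiers 603 gained a symbol from RefSeq. A count of 3 equals 0.135 to 0.476 CPM, which covers counting error only. No pair of libraries of a tissue agreed within sampling noise (lowest chi-square per degree of freedom 11.6). Data were also simulated for corpuscle against skin, with 200 of 14638 genes changed. There the fit recovered 66 of 98 genes changed 4-fold and 5 of 97 changed 2-fold, with 3 false calls among 74. With so few genes changed, the adjusted threshold is stricter than in the real data, where 56.4% of genes passed. These recovery figures therefore do not carry over to the real fit.

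Members and lists were chosen with earlier results of these data known. Named were all members, up to 3 of the most changed called genes of each related list at 10 CPM or more, fixed relatives and markers, and the 5 genes most like CAV1 and CAVIN1; other genes are marked as picked by value. Alternatives were other scalings, filters and tools (DESeq2 1.42.0, limma-voom 3.58.1), a replicate block, thinning, and leaving out libraries. Figures used matplotlib 3.10.9.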

Additional observations from a re-analysis of the deposited data

Results flagged for a closer look

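A single library stood apart from the rest of its tissue in 11 of 92 combinations of gene and tissue looked at. The rule flags about 1 in 20 where values are independent and normal. These CPM come from the same libraries, some near 0, and need not be so. No excess is therefore read from that count. Among the members this was CAV3 in corpuscle 4, at 3.81 CPM with the next corpuscle at 1.35 CPM. In corpuscles, MAL2 was high in corpuscle 3 (13.2 CPM, next 2.54), SH3GL1 was high in corpuscle 5 (32.6 CPM, next 9.85) and SNX9 was low in corpuscle 4 (7.29 CPM, next 25.0). In skin, skin 3 was high for HIP1 (119 CPM, next 78.0) and PLIN1 (4.24 CPM, next 1.31) and low for BIN1 (56.5 CPM, next 68.8). Skin 4 was high for SNX9 (188 CPM, next 160.3) and AQP1 (1010.1 CPM, next 739.8), skin 1 was low for PECAM1 (263 CPM, next 281), and MYOD1 was at 0.0662 CPM in skin 5 from its single skin read.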

How the results depend on the processing

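The 6 member fold changes kept their sign under every alternative that could fit them: CAV2 stayed between 3.19 and 3.49, CAV1 between 0.06 and 0.32, CAVIN1 between -0.69 and -0.14, CAVIN2 between 0.63 and 1.15, PACSIN2 between 0.08 and 0.60, and CAVIN4 between 0.24 and 0.84 in the 13 alternatives in which it was tested. CAVIN4 fell under the count filter without any single skin library, without skin 5 and 6, without the 20 most abundant genes and with thinning, and under the 5 CPM minimum. CAV2 passed under all 23. The members were chosen with this contrast known, and 56.4% of all genes passed the main fit. Nothing is therefore read from that or from the member counts that follow. The count of members called, all higher in corpuscles, was 1 with the replicate block and 1 without skin 5 and 6; leaving out single libraries gave 1 to 2, no filter added CAV3, leaving out corpuscles 4 and 5 added PACSIN2, and the cause was not tested. Called genes ranged from 6823 with a minimum of 5 CPM to 9929 with no filter. The median log2 fold change of all genes shifted by 0.15 with upper-quartile factors, 0.16 with no filter, -0.23 with limma-voom and -0.22 with the replicate block. Same-numbered libraries were not treated as pairs in the main fit, and the labels do not say whether they share an isolation. The correlation of their deviations ran from -0.15 to 0.13, which is too little to settle pairing. Under the replicate block, where skin 6 adds nothing on tissue, 7117 genes were called. Depth limits CAV3 and CAVIN4, with at most 24 reads in a library.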
